A study of Mus musculus with 3 samples.

Results

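The colony-stimulating factors (CSFs) and their receptors were followed in mouse bone marrow (BM) after LECT2 treatment. The group holds 8 gene symbols, 2 ligands (Csf1, Csf3) and 6 receptor chains (Csf1r, Csf2ra, Csf2rb, Csf2rb2, Csf3r, Il3ra), chosen by an exact match of the symbol in the deposited tables. These symbols take 9 of 17559 rows, since Csf3r is listed in 2 rows. BM cells were flushed from the leg bones, pelvis and humerus of C57BL/6 mice aged 6 to 8 weeks, without any sort, and 1 RNA-sequencing library was made for each of 3 time points, 0, 3 and 5 days. In the 3-day and 5-day groups, recombinant LECT2 made in Chinese hamster ovary cells was injected under the skin once daily at 300 μg per kg, and according to the methods the mice were killed a few hours after the final injection. In the 0-day group no LECT2 was given, and the labels name no vehicle injection. The number of mice behind each library is not given in the sources used here.

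CSFs are secreted proteins that keep myeloid cells and their progenitors alive and drive them to divide and mature. M-CSF (Csf1) binds the receptor tyrosine kinase Csf1r, which marks monocytes and macrophages. GM-CSF and IL-3 bind an α chain of their own, Csf2ra or Il3ra, which then pairs with a shared signalling β chain, Csf2rb. Mice carry a second β chain, Csf2rb2, which serves IL-3 alone. G-CSF (Csf3) binds Csf3r, which is abundant on neutrophils. G-CSF given as a drug drives haematopoietic stem cells (HSCs) out of the BM, and the study set LECT2 against it, so the level of this ligand and its receptor in the BM after LECT2 bears on that comparison.

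Csf1r, the M-CSF receptor, was 3.20-fold higher at 5 days than at 0 days, and Csf2rb, the shared β chain, 2.35-fold higher, although Csf2rb was below 2-fold with TMM scaling or once a trend on row length was removed. Csf2ra, the GM-CSF receptor α chain, was the highest member in every library. The ligand Csf1 stayed near 9 to 10 RPKM, a level scaled to the length of the row and the reads of the library. Csf3, which encodes G-CSF, was at 11, 10 and 0 reads. Since there was 1 library per time point, no difference below has a replicate check or a test. Intervals are 95% intervals of the reads and cover counting error only. In whole BM, more cells of a type and more RNA per cell cannot be told apart.

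The β chains are the members most easily confused with each other by sequence. Csf2rb2 (GRCm38, chr15:78282507-78305721, minus strand) and Csf2rb (chr15:78325752-78353847, plus strand) are protein-coding genes that lie 20030 bases apart and are read in opposite directions. Of 2628 aligned coding bases of their GENCODE transcripts, 2503 (95.2%) were identical, and the longest identical run was 242 bases. The first 120 bases of that run, which start at coding base 2083 of both genes, are shown because a read lying within them fits both genes.
Csf2rb and Csf2rb2: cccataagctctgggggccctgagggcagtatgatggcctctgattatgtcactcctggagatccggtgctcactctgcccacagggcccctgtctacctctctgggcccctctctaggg
The 60-base coding window with the most differences held 13 of them, and is shown because its reads can be told apart. It runs from base 304 to 363 of the Csf2rb coding sequence and from base 307 to 366 of that of Csf2rb2, counted from the start codon. Capitals mark the bases that differ.
Csf2rb: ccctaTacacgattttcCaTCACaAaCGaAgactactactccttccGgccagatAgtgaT
Csf2rb2: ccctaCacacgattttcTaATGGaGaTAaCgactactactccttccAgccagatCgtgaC
Of the 4715 windows of 50 bases in the Csf2rb transcript, 892 (18.9%) also occur in the Csf2rb2 transcript. How the authors' counting treated such reads is not given in the sources used here, so the split of reads between the β chains is uncertain.

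**Figure D1:**
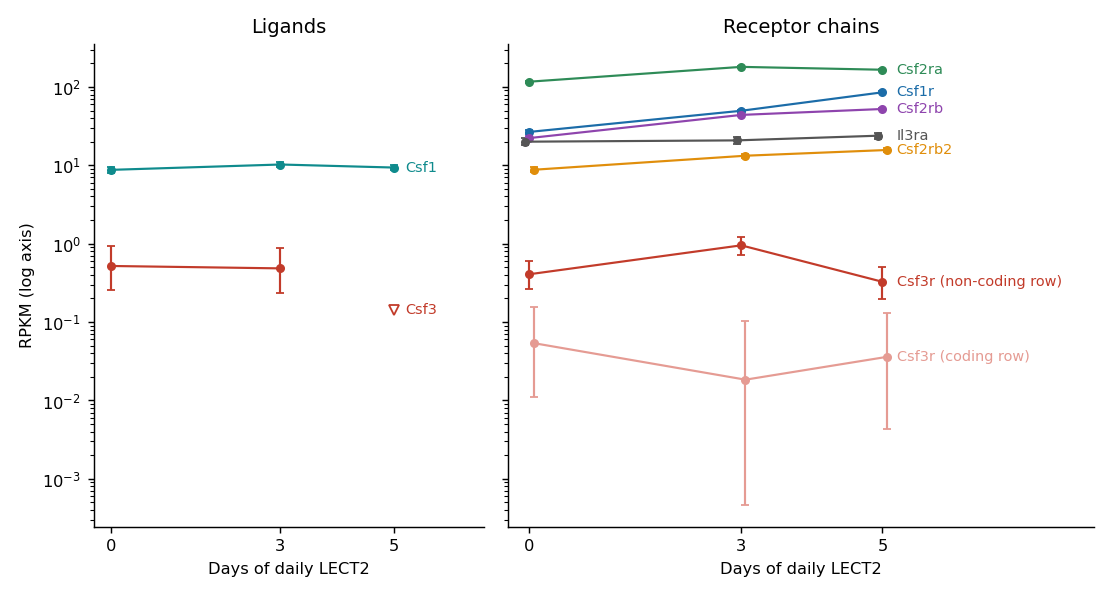
RPKM (log axis) of the 2 ligands (left) and of the 7 receptor rows (right) at 0, 3 and 5 days of LECT2, with 95% Poisson intervals of the reads. Csf2ra was highest throughout, Csf1r went from 26.7 to 85.3 RPKM, and the open triangle marks the level of 3 reads for Csf3 at 5 days, where no read was counted.

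The ligand Csf1 (gene ID 12977; chr3:107741048-107760469, minus strand) had 569, 650 and 609 reads at 0, 3 and 5 days, or 8.74, 10.2 and 9.36 RPKM. The 0-day and 5-day intervals, 8.04 to 9.49 and 8.63 to 10.1 RPKM, overlapped. The log2 ratio was 0.23 (0.063 to 0.39) at 3 days against 0 days and 0.098 (-0.068 to 0.27) at 5 days against 0 days. Both values changed sign with the processing. With the trend on row length described below taken out they were -0.093 and -0.50, and with TMM factors, which scale libraries on the bulk of their genes, the 5-day value was -0.21. No direction can therefore be given for Csf1 at either time.

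Csf3, which encodes G-CSF, had few reads in every library (gene ID 12985; chr11:98701263-98703629, plus strand). The libraries held 11, 10 and 0 of its reads in order of time, which is 0.520 and 0.484 RPKM followed by no signal. The 0-day and 3-day values did not differ beyond counting error, with a log2 ratio of -0.085 (-1.50 to 1.27). A count of 0 at 5 days was taken as at most 3 reads, or 0.142 RPKM, the floor used here. With that floor, and the earlier counts taken as they are, Csf3 was at least 3.66-fold lower than at 0 days. Against 3 days it was at least 3.41-fold lower. These bounds leave out the counting error of the 11 and 10 reads, and the 95% limit at 5 days, 0.174 RPKM, lies above the floor. The 95% intervals were 0.260 to 0.930 RPKM at 0 days and 0 to 0.174 RPKM at 5 days, which did not overlap but whose nearest ends lie closer together than those folds. The study itself reported no change of G-CSF mRNA in the BM after LECT2. Counts this low, from 1 library per time point, cannot test that result. The related ligand GM-CSF (Csf2), which is no member, was at 11, 10 and 0 reads as well, on a separate row of 1033 bases.

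Among the receptors, Csf1r on chromosome 18 (gene ID 12978) had the largest log2 ratio at 5 days against 0 days, while at 3 days Csf2rb and the sparse non-coding Csf3r row had larger ones. Its reads numbered 1604, 2912 and 5129 in order of time, or 26.7, 49.6 and 85.3 RPKM. Each step was larger than counting error. The log2 ratio was 0.89 (0.81 to 0.98) at 3 days against 0 days, 1.67 (1.60 to 1.76) at 5 days against 0 days, and 0.78 (0.72 to 0.85) at 5 days against 3 days. Among all rows with reads, its rank by RPKM went from 2851 at 0 days through 1574 to 893 at 5 days. At 5 days it stood above Csf2rb, with intervals of 83.0 to 87.7 and 50.6 to 54.0 RPKM, while at 0 days the intervals were 25.4 to 28.0 and 21.2 to 23.4.

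Csf2ra (gene ID 12982; chr19:61223957-61228429, minus strand) differed mainly by day 3. Its reads were 3348, 5048 and 4752, or 117, 180 and 166 RPKM. Against 0 days the log2 ratio was 0.63 (0.56 to 0.69) by day 3 and 0.51 (0.44 to 0.57) by day 5. With TMM factors the day 5 value was 0.20. From 3 to 5 days it was slightly lower, with a log2 ratio of -0.12 (-0.18 to -0.064). It exceeded 96.0%, 97.6% and 97.7% of all rows with reads in the 3 libraries.

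Csf2rb (gene ID 12983), the β chain shared by GM-CSF, IL-3 and IL-5, was counted at 1650, 3178 and 3874 reads, or 22.3, 43.9 and 52.3 RPKM. Against 0 days its log2 ratio was 0.98 (0.89 to 1.07) by day 3 and 1.23 (1.15 to 1.32) by day 5. The latter was 0.92 with TMM factors and 0.59 once the length trend was removed, both under 2-fold. The log2 ratio was 0.25 (0.18 to 0.32) between 3 and 5 days. The last value was 0.027 with TMM factors and -0.038 with the length trend removed, so it has no direction. Most of the difference was thus already there at 3 days, as for Csf2ra. Csf2rb2 (gene ID 12984), the β chain of IL-3 alone, was counted at 629, 927 and 1123 reads, or 8.77, 13.2 and 15.7 RPKM. The corresponding log2 ratios were 0.59 (0.45 to 0.74) and 0.83 (0.69 to 0.98), the latter 0.52 with TMM factors. At both times the intervals of the 2 β chains did not overlap, and Csf2rb had the higher ratio.

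Il3ra, the IL-3 receptor α chain (gene ID 16188; chr14:14346275-14356011, plus strand), had the smallest ratios against 0 days of the receptors with many reads at the deposited scaling. It had 433, 439 and 516 reads, or 20.0, 20.8 and 23.9 RPKM. Against 0 days the log2 ratio was 0.055 (-0.14 to 0.25) by day 3 and 0.25 (0.067 to 0.44) by day 5. With TMM factors these values were -0.030 and -0.055, so no direction can be given. With the trend on row length removed they were 0.27 and 0.28, above the 0.23 and 0.20 of Csf2rb2.

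Csf3r, the G-CSF receptor (chr4:126024550-126044440, plus strand), could not be followed. Its gene ID has no row in the tables, and its reads lie only on 2 rows keyed by single RefSeq transcripts. The row of the coding transcript had 3, 1 and 2 reads in order of time, which is at the limit of 3 reads. The row of the non-coding transcript had 25, 57 and 20 reads, or 0.408, 0.953 and 0.327 RPKM. Against 0 days its log2 ratio was 1.05 (0.52 to 1.96) by day 3 and -0.25 (-1.25 to 0.59) by day 5, the latter within counting error. Neither row passed the minimum of 1 RPKM used for counts of genes below.

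Values this low for a receptor abundant on neutrophils stood beside very high levels of neutrophil genes. The calprotectin subunit S100a8 was at 28717 RPKM in the 0-day library. GENCODE links the accession of the non-coding row to a transcript of 3160 bases, which it calls protein-coding and which is shorter than the deposited row of 3948 bases. Of its 3111 windows of 50 bases, 3089 also occur in the transcript linked to the coding row, so reads from them fit both, though the sequences behind the deposited rows were not compared. Low counts were common on such rows. The 816 rows keyed by an accession had a median of 2 reads at 0 days, against 166 for the 16743 rows keyed by a gene ID. Ptprc, the common leukocyte antigen CD45, and Gfi1, a repressor in neutrophil precursors, also have an accession row, and their gene ID rows were at 0.949 and 0.113 RPKM at 0 days. The part of this in the Csf3r values was not tested, and no level of the receptor is given from them.

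Counted at a threshold of 2-fold among the 6 member rows with at least 1 RPKM in a library compared, none was higher or lower at 3 days against 0 days. Of all 11343 rows tested, 4.08% were higher and 2.41% lower. At 5 days against 0 days, 2 of 6 members were higher (Csf1r and Csf2rb) and none was lower, where 15.5% of 11518 rows were higher and 5.93% lower. With TMM factors, of 0.913, 0.968 and 1.13, 1 of 6 was higher, Csf1r, where 7.13% of rows were. At 5 days against 3 days none was past the threshold in either direction, where 1.97% of rows were higher and 3.46% lower. At a lower threshold of 1.5-fold, 4 of 6 members were higher at 3 days against 0 days (Csf1r, Csf2ra, Csf2rb and Csf2rb2), beside 16.4% of all rows. Against 0 days, 3 of 6 were at 5 days (Csf1r, Csf2rb and Csf2rb2), beside 34.4%, and against 3 days 1 of 6 was (Csf1r), beside 17.3%. These counts depended on the scaling. With TMM factors Csf2ra and Csf2rb2 at 3 days against 0 days (0.54 and 0.51), Csf2rb2 at 5 days against 0 days (0.52) and Csf1r at 5 days against 3 days (0.56) were under 1.5-fold, which left no member past it in the last comparison. With the length trend removed, Csf2rb2 (0.23 at 3 days and 0.20 at 5 days, against 0 days) and Csf1r at 5 days against 3 days (0.48) were under it. The 6 rows had median log2 ratios of 0.61 and 0.67 for days 3 and 5 against 0 days, and 0.22 for day 5 against day 3. Over the 11164 rows whose mean reached 1 RPKM, the medians were 0.10, 0.31 and 0.25, the last above that of the members.

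**Figure D2:**
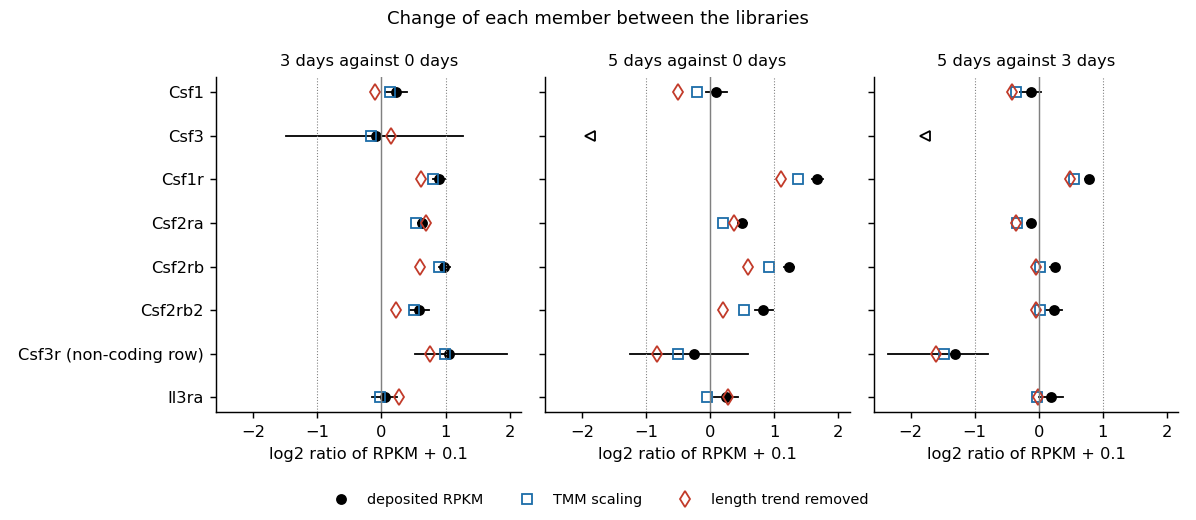
Log2 ratio of RPKM + 0.1 for each member in the 3 comparisons. Black points and lines are the deposited RPKM with 95% counting intervals, squares use TMM factors, diamonds have the length trend removed, dotted lines mark 2-fold, and triangles are bounds at 3 reads for Csf3. Csf1r is right of 0 in every version, whereas Csf1 at 5 days changes side.

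The ratios of all genes depended on the length of the row, and 4 of the 6 member rows with at least 1 RPKM are long. When the same 11164 rows were cut by length into 10 bins of equal size, the median log2 ratio for 5 days against 0 days ran from -0.43 in the shortest bin to 0.85 in the longest. For 3 days against 0 days it ran from -0.49 to 0.55. Csf1r, Csf1, Csf2rb and Csf2rb2 have rows of 3875, 4192, 4776 and 4619 bases, while Csf2ra and Il3ra have 1850 and 1394. Each member was therefore also set beside rows of like length.

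Csf1r exceeded 92.8% of the 1116 rows in its length bin for 3 days against 0 days and 96.6% for 5 days. Csf2ra exceeded 94.7% and 78.1% of its bin. For Csf2rb the shares were 94.5% and 85.7%, and for Csf2rb2 they were 69.1% and 62.3%. Il3ra exceeded 81.3% and 76.3% of its bin, and Csf1 40.6% and 19.9%. With the length trend removed, the log2 ratio at 5 days against 0 days was 1.11 for Csf1r, 0.59 for Csf2rb, 0.38 for Csf2ra and 0.20 for Csf2rb2. All 4 kept a positive ratio against 0 days, but Csf2rb no longer reached 2-fold, and 1 of 6 members did, where 5.07% of all rows were higher. What made the ratios follow length was not tested.

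**Figure D3:**
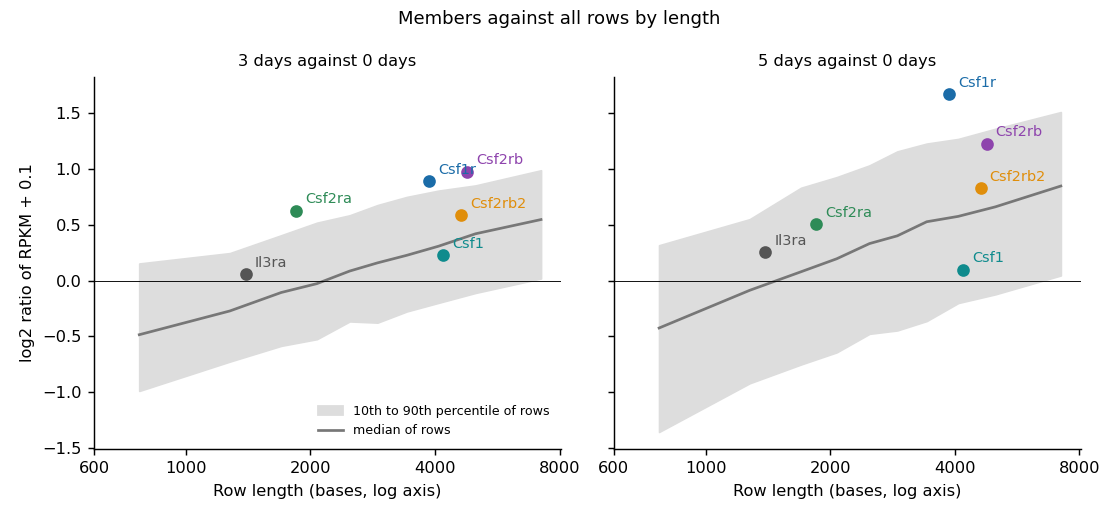
Log2 ratio of RPKM + 0.1 against row length (bases, log axis) at 3 days (left) and 5 days (right) against 0 days. The grey band spans the 10th to 90th percentile of rows in each of 10 bins of length and the line is their median. Csf1r lies above the band at both times, Csf2ra and Csf2rb only at 3 days.

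Ratios between members within 1 library do not depend on its scaling. The Csf1r to Csf1 ratio of RPKM, receptor over ligand, was 3.05 (2.77 to 3.36) at 0 days, 4.85 (4.45 to 5.28) at 3 days and 9.11 (8.38 to 9.93) at 5 days. The intervals did not overlap between any of the 3 libraries. Since both rows are of similar length, the length trend, 0.56 at the length of Csf1r and 0.59 at that of Csf1 for 5 days against 0 days, bears little on this ratio.

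The balance of α to β chains also differed between the libraries. Csf2ra was 5.24 (4.94 to 5.56) times as high as Csf2rb at 0 days, 4.10 (3.92 to 4.29) times at 3 days and 3.17 (3.03 to 3.30) times at 5 days. The sum of both α chains over the sum of both β chains went from 4.40 through 3.51 to 2.79. The α rows are the short ones and the β rows the long ones, so the length trend moves this ratio in the same direction. With that trend removed, the log2 ratio of Csf2ra at 3 days was 0.70, against 0.61 for Csf2rb, which turned the order of these chains, whereas at 5 days Csf2rb kept the larger value, 0.59 against 0.38.

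The β chains have rows of nearly equal length, so the length trend bears little on their ratio. The split of reads between them is uncertain, as said above, and the intervals do not cover this. Csf2rb took 72.4% (70.5 to 74.2) of the β chain reads at 0 days, 77.4% (76.1 to 78.7) at 3 days and 77.5% (76.3 to 78.7) at 5 days. The share was higher in both LECT2 libraries than at 0 days, with overlapping intervals in those 2 libraries. Csf2ra over Il3ra, the α chains, was 5.83 (5.27 to 6.45), 8.66 (7.86 to 9.57) and 6.94 (6.34 to 7.61). Csf1r made up 13.7% of the summed RPKM of the 5 receptors with many reads at 0 days and 24.9% at 5 days, while Csf2ra made up 48.3% at 5 days.

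**Figure D4:**
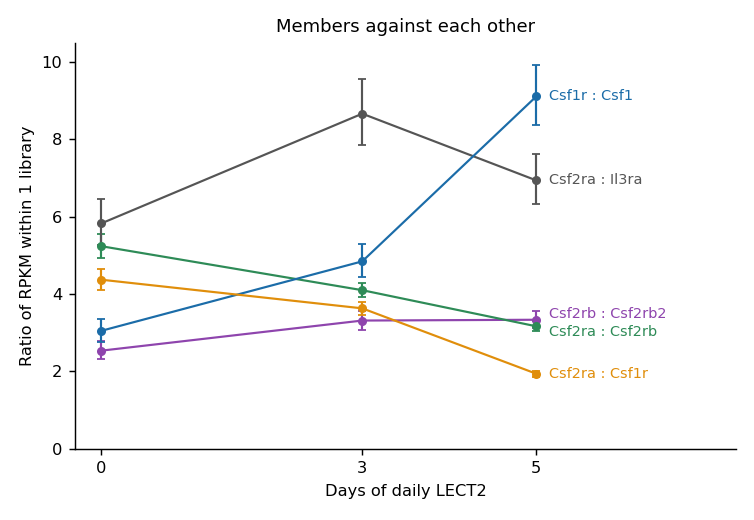
Ratio of RPKM between pairs of members within 1 library at 0, 3 and 5 days, with 95% intervals from the reads. Csf1r over Csf1 went from 3.05 to 9.11, and Csf2ra over Csf1r from 4.37 to 1.94.

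By level at 0 days the order was Csf2ra, Csf1r, Csf2rb, Il3ra, Csf2rb2, Csf1, Csf3 and the non-coding Csf3r row, which was followed by the coding one. Csf2rb and Il3ra, Csf2rb2 and Csf1, and Csf3 and the non-coding Csf3r row were neighbours with overlapping intervals. At 5 days Csf2rb2 was above Csf1, with intervals of 14.8 to 16.6 and 8.63 to 10.1 RPKM, and Il3ra was well below Csf2rb.

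The promoters of members could be read for 5 of the 8 genes in the RefSeq table (GRCm38.p6), from 250 bases before to 50 bases after the start of the gene. They were searched on both strands for GAGGAA, the core of sites of the myeloid factor PU.1, and for TTGCNNAA, a core of C/EBP sites. GAGGAA or its reverse complement TTCCTC was found in 3 of the 5, beside 28.3% of 32851 promoters, and TTGCNNAA in 1, beside 10.8%. Only the promoters of Csf2ra and Csf2rb2 are shown, as those with 2 GAGGAA matches each, with the matches in capitals. In Csf2ra (chr19:61228369-61228668, minus strand) the motif is followed directly by a second copy, and its first letters lie 14 and 8 bases before the start.
Csf2ra: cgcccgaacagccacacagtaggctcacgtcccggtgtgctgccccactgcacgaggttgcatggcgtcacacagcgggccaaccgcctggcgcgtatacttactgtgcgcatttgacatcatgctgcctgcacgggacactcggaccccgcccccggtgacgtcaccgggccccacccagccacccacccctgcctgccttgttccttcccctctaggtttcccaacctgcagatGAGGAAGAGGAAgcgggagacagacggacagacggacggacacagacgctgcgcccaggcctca
In Csf2rb2 (chr15:78305672-78305971, minus strand) a match lies 167 bases before the start and another at base 30 after it.
Csf2rb2: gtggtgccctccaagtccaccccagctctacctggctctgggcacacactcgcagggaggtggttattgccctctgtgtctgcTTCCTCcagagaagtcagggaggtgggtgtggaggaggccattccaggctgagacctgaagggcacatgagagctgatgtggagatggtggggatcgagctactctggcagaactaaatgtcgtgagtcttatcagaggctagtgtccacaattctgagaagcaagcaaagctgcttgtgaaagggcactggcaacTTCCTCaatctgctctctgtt
A match is a run of letters and not a measured site. Csf3r had 1 GAGGAA match, Il3ra 1 TTGCNNAA match and Csf1 neither. Spi1, which encodes PU.1, was at 193, 247 and 215 RPKM at 0, 3 and 5 days.

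Other genes of CSF signalling were read from 6 lists, written from general knowledge but with earlier results of these data known. Of 20 signal transducers, all had at least 1 RPKM, none was past 2-fold at 3 days, and at 5 days 4 were higher and none lower than at 0 days, beside 15.5% and 5.93% of all rows. The 3 largest were the kinase Tyk2, from 9.76 to 25.3 RPKM, the Ras exchange factor Sos1, from 2.88 to 6.74, and the adaptor Ywhaz, from 1.66 to 3.68. The kinase Jak2, which carries the signal of the β chain, was at 14.1, 21.3 and 28.5 RPKM. With the length trend removed none of the 4 reached 2-fold, with log2 ratios of 0.71 for Tyk2, 0.55 for Ywhaz, 0.35 for Jak2 and 0.30 for Sos1. The most abundant were the adaptor Tyrobp, at 889, 874 and 560 RPKM, and the kinases Syk and Lyn, at 117 and 99.9 RPKM at 0 days. The median log2 ratio of the list was 0.46 and 0.47 on days 3 and 5 against 0 days, and 0.19 and -0.12 with the length trend removed, so its direction at 5 days turned.

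Of 12 negative regulators, 11 were tested. At 5 days 3 were higher and 1 lower than at 0 days, beside 15.5% and 5.93% of all rows. Cbl, a ubiquitin ligase that removes Csf1r from the cell surface, was at 2.56, 15.4 and 24.0 RPKM. Sh2b3, an adaptor that restrains cytokine receptors, was at 10.3, 31.4 and 40.7 RPKM, and Ptprc, with the doubtful row named above, at 0.949, 4.86 and 6.45. These 3 were past 2-fold at 3 days too, where 4.08% of all rows were higher. Socs3, the feedback inhibitor of Csf3r, was lower, at 29.8, 22.6 and 8.32 RPKM. Ptpn6 and Inpp5d, phosphatases acting on these receptors, were the most abundant, at 181 and 52.6 RPKM at 0 days. The list's median log2 ratio was 0.24 and 0.23, and it turned to -0.15 and -0.27 with the length trend removed, while Cbl, Sh2b3, Ptprc and Socs3 stayed past 2-fold at 5 days.

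Target genes of STAT proteins, not all of which need be induced by CSFs, had median log2 ratios of -0.19 and -0.50 on days 3 and 5 over 8 genes. With the length trend removed the medians were -0.080 and -0.76. At 5 days 1 of the 8 was at least 2-fold lower and none higher, beside 5.93% and 15.5% of all rows. This was Osm, a cytokine of myeloid cells, at 279, 281 and 78.8 RPKM. Mcl1 and Pim1, which keep cells alive, were the most abundant beside Osm, and went from 392 to 198 and from 256 to 147 RPKM between 0 and 5 days. With the length trend removed Mcl1 was past 2-fold lower too, at a log2 ratio of -1.50, and Pim1 was not, at -0.90. At 3 days Bcl6 alone was at least 2-fold higher, where 4.08% of all rows were. Its log2 ratio was 1.01, or 0.80 with the length trend removed.

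Among 9 transcription factors of myeloid receptor genes, 8 were tested and 1, Ets2, was at least 2-fold lower at 5 days, where 5.93% of all rows were. Ets2 was at 90.5, 90.1 and 24.6 RPKM. The most abundant were Spi1, Irf8 and Cebpb. Irf8, a factor of the monocyte lineage, was at 111, 113 and 172 RPKM, and Cebpb at 153, 143 and 90.7. The list's median was 0.18 and 0.38, and 0.075 and -0.047 with the length trend removed, which turned the direction at 5 days.

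Of 9 other cytokine receptors of blood cells, 1 was at least 2-fold higher at 5 days and none lower, beside 15.5% and 5.93% of all rows. This was Il6st, the gp130 chain, at 3.73, 7.16 and 16.4 RPKM. Il2rg, the shared γ chain, was the most abundant, at 82.0, 67.1 and 77.6 RPKM, followed by Il7r and Il4ra by the mean of the 3 libraries. The list's median was 0.084 and 0.24, and turned to -0.14 and -0.13 with the length trend removed. Of 10 other growth factors 7 had a row, and Il3, Epo and Thpo did not. Flt3l alone had a mean of at least 1 RPKM, at 12.4, 12.9 and 13.4. Of 2 tested at 5 days, 1 was at least 2-fold lower, where 5.93% of all rows were. It was Il11, named after its values were seen, at 1.36, 0.644 and 0.430 RPKM. Il34, the second ligand of Csf1r, was at 7 reads at 0 days.

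**Figure D5:**
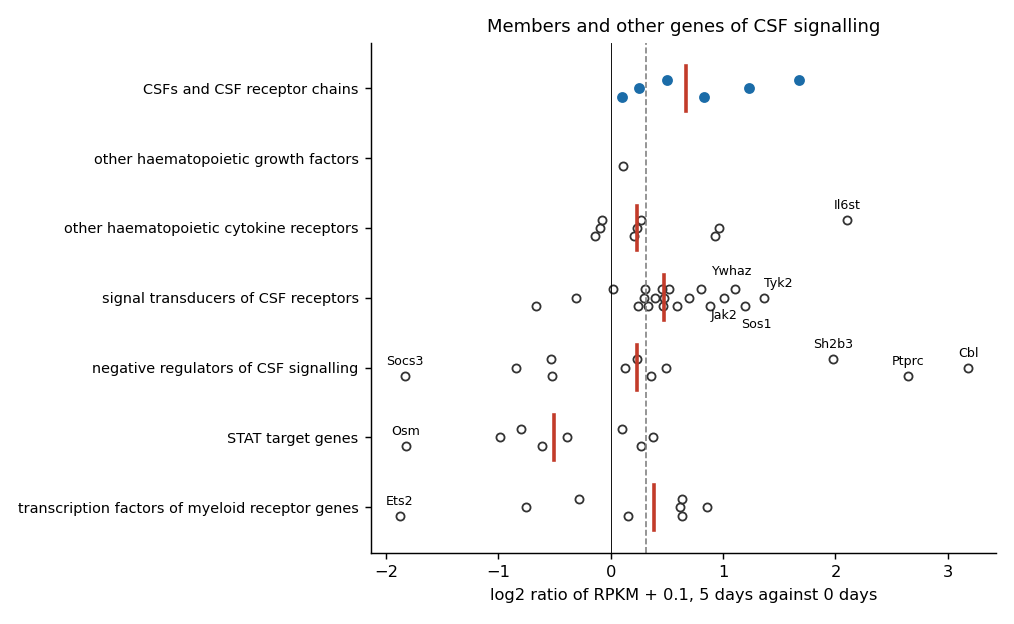
Log2 ratio of RPKM + 0.1 at 5 days against 0 days for the 6 CSF and receptor rows (filled) and the genes of 6 signalling lists with a mean of at least 1 RPKM (open). Red bars are medians of each list, the dashed line is the median of all rows (0.31), and genes past 2-fold in the lists are named.

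The RNA levels of cell type markers differed between these libraries as well. Of 15 monocyte and macrophage markers, 6 were at least 2-fold higher and 1 (Cd14) lower at 5 days than at 0 days, beside 15.5% and 5.93% of all rows. With the length trend removed, Mpeg1 (0.67) and Cd163 (0.52) were no longer past 2-fold. The list had summed levels of 1539, 1731 and 2024 RPKM and median log2 ratios of 0.58 and 0.71 for days 3 and 5 (0.36 and 0.28 with the length trend removed). Ccr2, the chemokine receptor of inflammatory monocytes, was at 45.1, 85.8 and 142 RPKM, and the complement genes C1qa, C1qb and C1qc lay between 48.6 and 62.4 RPKM in the 3 libraries. Of 12 late neutrophil markers, 11 were lower by at least 2-fold at 5 days, and their sum was 150107, 116099 and 41411 RPKM. All 5 promyelocyte markers had a log2 ratio above 0, and 1, Mpo, was at least 2-fold higher. Of 7 osteolineage markers tested, 6 were at least 2-fold lower. Of the endothelial and stromal markers tested, 2 of 4 were at least 2-fold lower at 5 days, beside 5.93% of all rows. For erythroid markers it was 2 of 6, for plasmacytoid dendritic cell markers 1 of 4 and for T and NK cell markers 1 of 7. None of these lists had a gene at least 2-fold higher. Of 8 basophil, mast cell and eosinophil markers 2 were higher and none lower, and of 6 B cell markers none passed 2-fold. The genes lower in the endothelial and stromal list were the stromal genes Lepr (1.82, 0.995 and 0.856 RPKM) and Cxcl12 (15.9, 10.9 and 5.38 RPKM). Some sums differed as well. The erythroid sum was 4375, 3545 and 1525 RPKM, and the plasmacytoid dendritic cell sum 286, 145 and 157 RPKM. No monocyte marker was without reads at 0 days. The part of these differences in the values of Csf1r and the other receptors was not tested.

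Genes with the profile most like 5 of the members were taken over the 3 libraries by the distance between centred log2 values, among 8196 rows with a mean of at least 5 RPKM. They were Ipo7, Gen1 and Ctsc for Csf1r, with 45 rows within a distance of 0.1. For Csf2ra they were Dennd5a, Vsp9d1 and Stx17 (106 rows). For Csf2rb2 they were Smad4, Acly and Pabpc1 (241 rows), for Il3ra Usp19, Tor1b and Eci1 (417 rows), and for Csf1 Zeb1, Dgka and Paqr7 (198 rows). No member was among the 3 nearest of these. With 3 points a profile, such likeness is a description only.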

How the data were processed

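The transcriptome of flushed BM cells was measured in 3 libraries, made with oligo(dT) and the TruSeq RNA kit. The authors deposited whole read counts per row and the RPKM computed from them. The methods name Cufflinks 1.0.3, and the submitters' processing notes name mm8. The aligner is not given in the sources used here. The deposited comparison columns (log2 ratios, P values and false discovery rates of 2 libraries) were not used. The libraries held 15146983 to 15523952 counted reads, so 1 read on 1000 bases is worth 0.0644 RPKM at 0 days.

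Rows without reads, listed at 0.01 RPKM, were set to 0. Changes were log2 ratios of RPKM + 0.1, with 95% intervals of the count ratio by the exact Clopper-Pearson method, or Poisson intervals of levels. Counts at 2-fold used rows with at least 1 RPKM in either library, and 3 reads were the floor. The members and lists were chosen with earlier results of these data known. All members were reported, with the 3 genes of each signalling list highest in mean RPKM and up to 3 largest 2-fold changes each way at 5 days. Marker lists are given by counts and a few genes. Alternatives were pseudocounts of 1 and 0.01, TMM factors (edgeR 4.0.16), size factors (DESeq2 1.42.0), scaling without the top 100 rows, removal of the length trend (lowess, span 0.3, statsmodels 0.14.6), summed rows, other thresholds and minimums. Steps were tested on simulated data. Positions came from GENCODE M21 (GRCm38), not from the authors' build. The genes nearest in profile to Csf2rb are not reported here.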

Additional observations from a re-analysis of the deposited data

How the results depend on the processing

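With 1 library per time point, leaving out a library was not possible. No paired analysis was possible because each time point has a single library and no result comes from a test. Under the alternatives, 2 of 6 members at least 2-fold higher at 5 days against 0 days became 1 with TMM factors, size factors and the length trend removed. At a threshold of 1.5-fold, 4 members were higher at 3 days against 0 days and 1 (Csf1r) at 5 days against 3 days, in place of 0, and with TMM factors Csf2ra, Csf2rb2 and the latter Csf1r value were under that threshold. With no minimum, where rows of few reads enter, 1 was higher at 3 days against 0 days, 1 lower at 5 days against 0 days and 2 lower at 5 days against 3 days. The other 52 such counts were within 1.5 times, among them 3 in place of 2 higher at 5 days against 0 days at 1.5-fold.

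The log2 ratio changed sign in 16 cases. With TMM factors, Csf1 was -0.21 at 5 days against 0 days, and Il3ra was -0.030, -0.055 and -0.026 in the 3 comparisons. With size factors Csf1 was -0.20 and Il3ra -0.025, -0.045 and -0.019. Without the 100 most abundant rows, Il3ra at 3 days was -0.041 and Csf1 at 5 days -0.10. With the length trend removed, Csf1 was -0.093 at 3 days and -0.50 at 5 days, Csf3 at 3 days was 0.15, and at 5 days against 3 days Csf2rb was -0.038, Csf2rb2 -0.049 and Il3ra -0.013. Csf1r, Csf2ra, Csf2rb and Csf2rb2 kept a positive ratio against 0 days under every alternative run. The cause was not tested. Depth limits Csf3, whose 0 reads at 5 days were taken as at most 3, and the low counts on the Csf3r rows have no tested cause.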
